A study of Mus musculus with 4 samples.

Results

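The 29 genes described here make, sense or export cholesterol and lipids, and they were followed in migratory dendritic cells (DCs) of the mouse. They were taken by name from a list, and all 29 were found among the 22631 gene rows shared by both count matrices. They fall into 18 enzymes of sterol synthesis (8 of the mevalonate and squalene steps, 10 of the later sterol steps), 4 enzymes of fatty acid and phospholipid synthesis, 4 regulators of the SREBP system and 3 genes of sterol transport and efflux.

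The cells came from ear-draining lymph nodes of Tnfsf4KI/+ mice, in which a blue fluorescent protein (BFP) reports OX40L, a costimulatory ligand encoded by Tnfsf4. MC903, a vitamin D analogue that makes skin produce the cytokine TSLP, was put on the ears at days 0, 2 and 4 before harvest at day 5. The other mice were left untreated, and all groups carried the same reporter allele. Migratory DCs (B220-, CD11c intermediate, MHC class II high) were sorted as 5000 BFP+ and 7000 BFP- cells per condition and tagged with hashtag antibodies. The MC903 cells made 1 droplet capture and the untreated cells another, so treatment, capture, library and sequencing lane cannot be told apart. The labels do not give the number of mice, and each of the 4 populations was 1 pool, so no test across animals was possible.

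Barcodes were kept from 500 detected genes upward if no more than 10% of their unique molecular identifiers (UMIs, each counting 1 captured RNA molecule) were mitochondrial, which left 5636 of 6316 in the MC903 capture and 8422 of 9520 in the untreated one. Barcodes under 2000 UMIs were given no cell type (101 after MC903 and 1752 untreated). DCs were recognised by maturation markers such as Ccr7 and Fscn1, and BFP+ and BFP- cells by the hashtag that held at least 80% of a cell's tag counts. This left 1426 BFP+ and 3123 BFP- DCs after MC903 and 412 BFP+ and 3541 BFP- DCs from untreated mice. The hashtags matched the reporter: BFP transcripts stood at 107 and 10.6 CPM (UMI counts scaled to a common library total) in BFP+ and BFP- DCs after MC903, and at 82.3 and 6.38 CPM in untreated BFP+ and BFP- DCs. Depth differed, with a median of 10259 UMIs per cell in MC903 BFP+ DCs and 9658 in MC903 BFP- DCs, against 6630.5 and 2985 in untreated BFP+ and BFP- DCs. The captures shared 23 barcodes. Values below are CPM of UMIs summed over a population. Each interval is a 95% Poisson interval that covers counting error only, not the variation between cells or between mice.

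Cholesterol is built from acetyl-CoA through mevalonate, isoprenoid units and squalene, which is then closed into a ring and trimmed into sterols. When membranes of the endoplasmic reticulum run low in sterol, Scap escorts SREBP proteins to the Golgi, where they are cut and released to switch on these enzymes, while Insig proteins hold Scap back when sterol is plentiful. SREBP2, encoded by Srebf2, acts mainly on sterol genes and SREBP1, encoded by Srebf1, mainly on fatty acid genes. Oxidised sterols activate LXR receptors, which raise the exporters Abca1 and Abcg1. In DCs, membrane cholesterol is known to bear on receptor clustering and antigen presentation.

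Synthesis genes were present at readable levels in all 4 populations. The 18 sterol enzymes together made up 1048 CPM (1032 to 1065) in MC903 BFP+ DCs and 1298 CPM (1286 to 1311) in MC903 BFP- DCs, against 960 (925 to 995) and 1052 CPM (1036 to 1068) in untreated BFP+ and BFP- DCs. The MC903 BFP- DCs thus stood above the other 3 populations, and their interval overlapped none of them. Other cells carried through the sort had less: the sum was 1216 CPM in all DCs of the MC903 capture, against 534 CPM in B cell-gated and 402 CPM in T cell-gated barcodes. In the untreated capture it was 1031 CPM in DCs, against 656 CPM in B cell-gated, 583 CPM in T cell-gated and 784 CPM in monocyte or macrophage-gated barcodes. B cell-gated barcodes of the untreated capture also held 923 CPM of the DC marker Fscn1, against 530 CPM in those of the MC903 capture. The part of free RNA or mixed droplets in these B and T cell values was not tested.

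**Figure D1:**
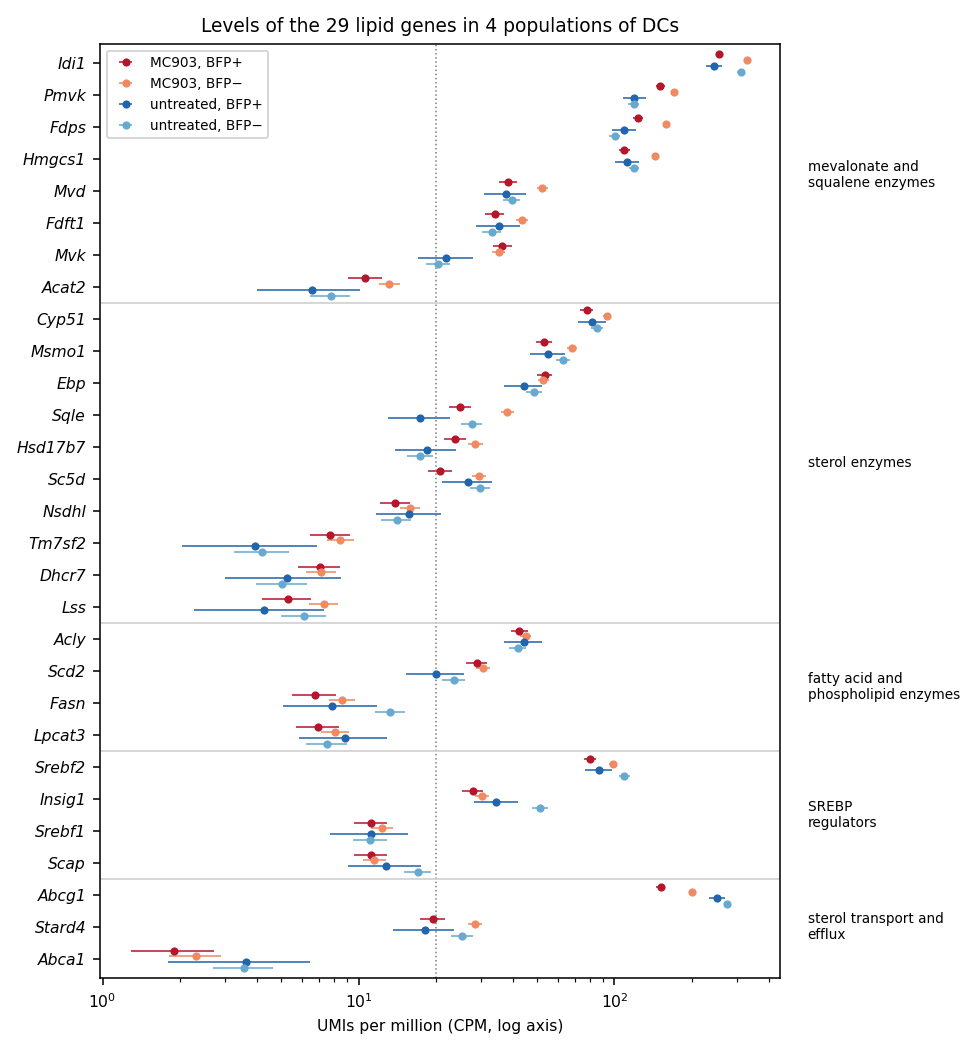
Level of each of the 29 genes, in CPM on a log axis, in the 4 DC populations, with genes ordered by role and 95% Poisson intervals. Idi1, Abcg1, Pmvk, Fdps and Hmgcs1 lie near or above 100 CPM, while Abca1, Lss, Dhcr7 and Tm7sf2 lie below the dotted line at 20 CPM in all 4 populations.

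Promoter sequences were read because SREBP proteins act there. They bind sterol response elements, often beside a CCAAT box bound by NF-Y. Windows of 250 bases before to 50 after each transcription start came from RefSeq on GRCm38.p6, and 23 of the 29 members matched by symbol, all but Fdps, Fdft1, Sqle, Scd2, Stard4 and Abcg1. The 4 windows below belong to Hmgcs1, Srebf2 and Msmo1, which hold the motif TCACNCCA, and to Mvk, described below as higher after MC903 in both populations. Capitals mark TCACNCCA and CCAAT on either strand (ATTGG being CCAAT on the opposite strand), and the positions are chr13:119690101-119690400 (plus strand), chr15:82147019-82147318 (plus), chr8:64733529-64733828 (minus) and chr5:114444019-114444318 (plus) in that order.
Hmgcs1: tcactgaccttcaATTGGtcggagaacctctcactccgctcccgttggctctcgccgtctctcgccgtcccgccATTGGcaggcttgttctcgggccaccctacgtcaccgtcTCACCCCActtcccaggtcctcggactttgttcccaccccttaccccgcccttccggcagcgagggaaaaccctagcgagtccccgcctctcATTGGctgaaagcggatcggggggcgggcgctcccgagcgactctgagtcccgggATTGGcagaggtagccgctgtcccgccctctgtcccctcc
Srebf2: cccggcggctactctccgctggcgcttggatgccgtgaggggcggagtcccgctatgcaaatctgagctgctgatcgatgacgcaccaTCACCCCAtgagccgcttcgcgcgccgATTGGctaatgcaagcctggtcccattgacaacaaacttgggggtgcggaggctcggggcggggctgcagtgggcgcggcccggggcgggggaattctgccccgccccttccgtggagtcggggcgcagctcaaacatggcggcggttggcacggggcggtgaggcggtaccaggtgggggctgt
Msmo1: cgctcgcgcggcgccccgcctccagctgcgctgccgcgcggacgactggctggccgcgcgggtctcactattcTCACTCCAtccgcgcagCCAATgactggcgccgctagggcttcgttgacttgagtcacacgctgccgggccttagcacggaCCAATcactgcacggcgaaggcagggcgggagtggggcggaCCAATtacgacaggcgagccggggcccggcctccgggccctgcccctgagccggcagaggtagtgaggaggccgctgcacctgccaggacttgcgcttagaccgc
Mvk: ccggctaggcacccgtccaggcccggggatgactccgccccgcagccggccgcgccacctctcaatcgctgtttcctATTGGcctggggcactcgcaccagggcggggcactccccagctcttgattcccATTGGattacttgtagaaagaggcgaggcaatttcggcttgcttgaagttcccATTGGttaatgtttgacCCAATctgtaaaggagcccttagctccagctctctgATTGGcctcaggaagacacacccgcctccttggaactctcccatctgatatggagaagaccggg

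TCACNCCA began 137 bases before the start in Hmgcs1, 162 in Srebf2 and 177 in Msmo1. It was found for 3 of 23 members, in 3 of their 29 windows (10.3%), against 4.36% of all 32851 windows. CCAAT was found for 20 of 23 members and 14 of 15 sterol enzymes with a window, in 21 of their 29 windows (72.4%), against 37.4% of all windows. These matches describe letters in the window and not binding.

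Of the mevalonate and squalene enzymes, Idi1 (ENSMUSG00000058258, chr13:8885501-8892451 of GRCm38, plus strand), which isomerises the basic isoprenoid unit, had the most UMIs. It stood at 257 CPM in MC903 BFP+ DCs and 331 CPM in MC903 BFP- DCs, against 245 and 311 CPM in untreated BFP+ and BFP- DCs. BFP+ DCs were lower than BFP- DCs in both captures, and the intervals of the 2 populations did not overlap in either. Fdps (ENSMUSG00000059743, chr3:89093588-89101959, minus strand), which joins isoprenoid units into farnesyl pyrophosphate, stood at 124 CPM in MC903 BFP+ DCs and 159 CPM in MC903 BFP- DCs, against 109 and 100.3 CPM in untreated BFP+ and BFP- DCs. MC903 BFP- DCs were again the highest. Mvk (ENSMUSG00000041939, chr5:114444269-114460591, plus strand), the kinase that phosphorylates mevalonate, stood at 36.5 CPM and 35.4 CPM in MC903 BFP+ and BFP- DCs, against 22.1 and 20.5 CPM in untreated BFP+ and BFP- DCs. Both MC903 populations were above both untreated ones, and within a capture the intervals of the BFP+ and BFP- cells overlapped. Pmvk, Hmgcs1, Mvd and Fdft1 ranged from 33.1 to 170 CPM over the populations, and Acat2 from 6.59 to 13.2 CPM.

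Among the later sterol enzymes, Cyp51 (ENSMUSG00000001467, chr5:4081145-4104746, minus strand), a demethylase of lanosterol, stood at 77.9 CPM in MC903 BFP+ DCs and 93.4 CPM in MC903 BFP- DCs, against 82.0 and 85.7 CPM in untreated BFP+ and BFP- DCs. Sqle (ENSMUSG00000022351, chr15:59315077-59331192, plus strand), the squalene epoxidase that commits squalene to sterols, stood at 25.0 CPM and 38.1 CPM in MC903 BFP+ and BFP- DCs, against 17.5 and 27.7 CPM in untreated BFP+ and BFP- DCs. It was the lower of each pair in BFP+ cells. Hsd17b7 (ENSMUSG00000026675, chr1:169949535-169969241, minus strand), a sterol ketoreductase, stood at 23.9 CPM and 28.6 CPM in MC903 BFP+ and BFP- DCs, against 18.4 and 17.4 CPM in untreated BFP+ and BFP- DCs. Msmo1, Ebp and Sc5d ranged from 20.8 to 68.3 CPM, and Nsdhl, Lss, Tm7sf2 and Dhcr7 stayed below 20 CPM in every population. Fdft1 and Cyp51 overlap Ctsb and Akap9 on the opposite strand, and Tm7sf2 overlaps Vps51 on its own strand, so their counts could hold reads of those neighbours.

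The other role groups were led by genes with different profiles. Acly (ENSMUSG00000020917, chr11:100476353-100528000, minus strand), which makes cytosolic acetyl-CoA from citrate, stood at 42.5 CPM and 44.9 CPM in MC903 BFP+ and BFP- DCs, against 44.1 and 41.9 CPM in untreated BFP+ and BFP- DCs, a level that hardly varied. Srebf2 (ENSMUSG00000022463, chr15:82147181-82205379, plus strand) stood at 80.1 CPM and 98.3 CPM in MC903 BFP+ and BFP- DCs, against 86.9 and 109 CPM in untreated BFP+ and BFP- DCs, lower in the BFP+ cells of both captures. Insig1 (ENSMUSG00000045294, chr5:28071363-28078662, plus strand) stood at 28.0 CPM and 30.4 CPM in MC903 BFP+ and BFP- DCs, against 34.6 and 51.1 CPM in untreated BFP+ and BFP- DCs. Only the untreated BFP- DCs stood apart from the rest for this gene. Abcg1 (ENSMUSG00000024030, chr17:31057675-31117988, plus strand), the exporter that hands cholesterol to lipoprotein particles, stood at 152 CPM and 201 CPM in MC903 BFP+ and BFP- DCs, against 253 and 276 CPM in untreated BFP+ and BFP- DCs. The order of its levels ran MC903 BFP+, MC903 BFP-, untreated BFP+, untreated BFP-, and only the untreated pair had overlapping intervals. Stard4, a carrier of cholesterol between membranes, ranged from 18.1 to 28.5 CPM, and Scd2, a desaturase of fatty acids, from 20.1 to 30.6 CPM. Fasn, Lpcat3, Srebf1 and Scap stayed below 20 CPM. Abca1 stood at 2.24 CPM in DCs of the MC903 capture, against 37.1 CPM in its B cell-gated barcodes, and at 3.81 CPM in untreated DCs, against 92.0 CPM in monocyte or macrophage-gated barcodes.

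In BFP- DCs, MC903 went with more sterol enzyme RNA and less Insig1. A gene was called apart when it reached 20 CPM on the higher side and its ratio was at least 1.5 either way. Of 19 members at 20 CPM, Mvk, Fdps and Hsd17b7 were apart above and Insig1 below, or 4 of 19, beside 9.9% of all genes. Their log2 ratios, MC903 over untreated, were 0.79 (0.61 to 0.97) for Mvk, 0.66 (0.58 to 0.75) for Fdps, 0.72 (0.52 to 0.92) for Hsd17b7 and -0.75 (-0.88 to -0.61) for Insig1. Most other enzymes lay higher by less: the intervals of 12 of 13 enzymes were above 0, with a median log2 ratio of 0.40, while the median over all genes was -0.02. Sc5d was the enzyme whose interval held 0, at -0.02 (-0.18 to 0.14). Srebf2 had -0.15 (-0.24 to -0.07) and Abcg1 -0.46 (-0.51 to -0.40), both below untreated and both short of the 1.5-fold mark. The call of Insig1 was lost with HTODemux hashtag calls (-0.19) and from 8000 UMIs up. That of Fdps was lost within 4000 to 12000 UMIs and with per-cell means (0.55 in both), and that of Hsd17b7 within 4000 to 12000 UMIs (0.57). The enzyme median fell to 0.23 within 4000 to 12000 UMIs. It turned to -0.21 within 2000 to 8000 UMIs, where 9 of 13 enzymes lay below 0.

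In BFP+ DCs the same comparison gave a different set. Mvk at 0.73 (0.36 to 1.11) was apart above and Abcg1 at -0.74 (-0.85 to -0.62) below, or 2 of 18 members, beside 7.85% of all genes. The median of 13 enzymes was 0.07, against -0.04 over all genes, and the intervals of 5 enzymes lay above 0. Fdps had 0.18 (0.01 to 0.35) here. The enzyme median turned to -0.07 within 4000 to 12000 UMIs and to -0.30 within 2000 to 8000 UMIs. In the latter range Mvk stood at 0.19 and Abcg1 at -0.34. There 8 of 17 members were apart, all below, beside 16.6% of all genes. The call of Abcg1 was also lost with per-cell means (-0.57). The difference of the 2 log2 ratios, BFP- minus BFP+ cells, was 0.48 (0.30 to 0.67) for Fdps, -0.44 (-0.78 to -0.11) for Insig1 and 0.28 (0.15 to 0.41) for Abcg1, with intervals of counting error that left out 0. For Mvk it was 0.06 (-0.34 to 0.47) and for Hsd17b7 0.35 (-0.10 to 0.79), both with intervals around 0.

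**Figure D2:**
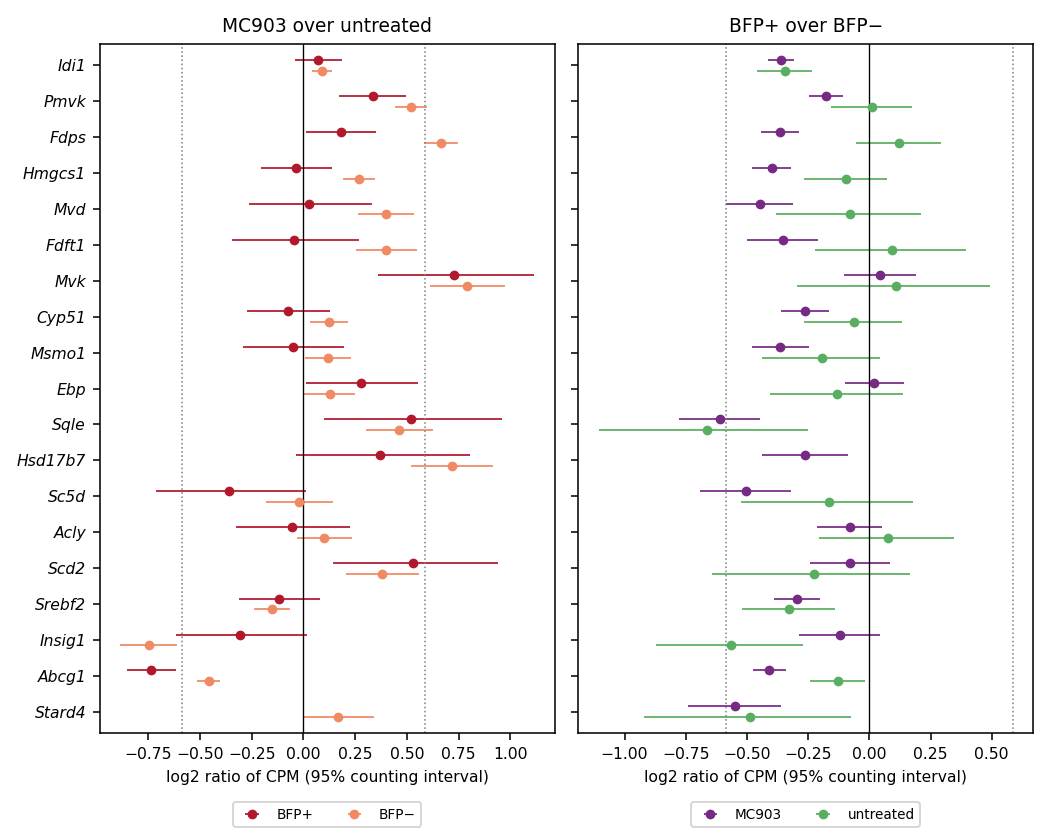
log2 ratio of CPM for the members that reached 20 CPM in at least 1 comparison, MC903 over untreated on the left and BFP+ over BFP- on the right, with 95% counting intervals and dotted lines at a 1.5-fold ratio. Most enzymes lie right of 0 for BFP- cells in the left panel and left of 0 for the MC903 capture in the right panel, while Mvk and Ebp lie near 0 in the right panel.

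The treatment difference moved with the depth of the cells. Among BFP- DCs with 2000 to 8000 UMIs the enzyme sum was 944 CPM after MC903 and 1026 CPM in untreated cells, a log2 ratio of -0.12 (-0.17 to -0.07). Among those with at least 8000 UMIs it was 1379 CPM after MC903 and 1095 CPM in untreated cells, a log2 ratio of 0.33 (0.29 to 0.37). BFP+ DCs gave -0.34 (-0.47 to -0.22) in the shallower cells and 0.15 (0.08 to 0.22) in the deeper ones. The sum was thus above untreated from 8000 UMIs up and below it over 2000 to 8000 UMIs as a whole. Inside that range, BFP+ DCs of 2000 to 4000 UMIs had 1044 CPM (903 to 1202) in 58 MC903 cells. The 156 untreated ones had 938 CPM (848 to 1035). The range was not matched in depth: 857 of 1018 MC903 BFP- cells lay at 4000 to 8000 UMIs, against 597 of 3057 untreated ones. In the shallower BFP- DCs Fdps turned to a log2 ratio of -0.13, while Hsd17b7 at 0.44 and Mvk at 0.42 stayed above untreated but short of 1.5-fold. Insig1 had -1.27 in the shallower cells and -0.08 in the deeper ones. The part of depth itself, as against the state of the cells that yield it, was not tested.

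**Figure D3:**
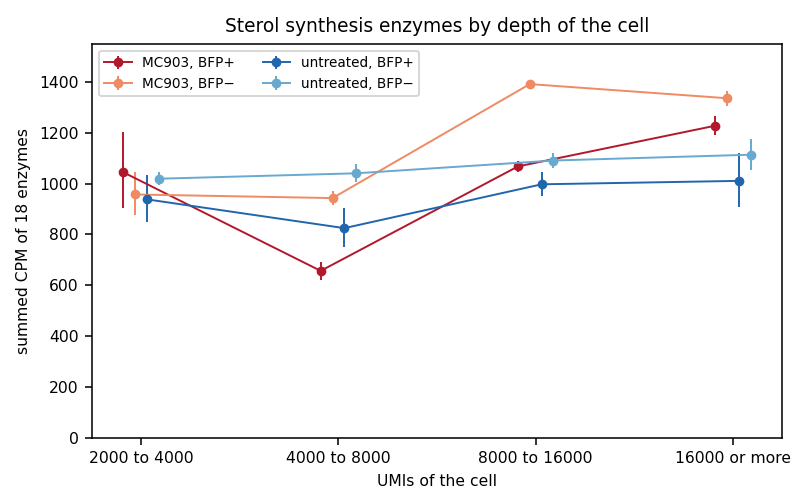
Summed CPM of the 18 sterol synthesis enzymes (vertical axis) in DCs grouped by the UMIs of the cell (horizontal axis), for the 4 populations, with 95% Poisson intervals. In the untreated capture BFP+ lies below BFP- in every range, and in the MC903 capture in the 3 ranges from 4000 UMIs up.

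Within each capture, BFP+ DCs had less sterol enzyme RNA than BFP- DCs. After MC903 the log2 ratio of the sum was -0.31 (-0.33 to -0.28), and the intervals of 11 of 13 enzymes lay below 0, with a median of -0.36 against -0.02 over all genes. In untreated cells the log2 ratio of the sum was -0.13 (-0.19 to -0.08), with a median of -0.09 over 12 enzymes against -0.00 over all genes and 2 intervals below 0. Sqle was the only member apart in either: -0.61 (-0.78 to -0.44) after MC903, or 1 of 19 members beside 2.74% of all genes, and -0.66 (-1.10 to -0.25) in untreated cells, or 1 of 18 beside 6.85%. Mvk at 0.05 (-0.10 to 0.19) and Ebp at 0.02 (-0.10 to 0.14) did not share the shift in the MC903 capture. Stard4 went the way of the enzymes, with -0.55 (-0.74 to -0.36) after MC903 and -0.49 (-0.92 to -0.08) in untreated cells. The call of Sqle after MC903 was lost with TMM scaling (-0.58), at no more than 5% mitochondrial UMIs (-0.57), without the DC gate (-0.58), from 8000 UMIs up (-0.56) and among DCs of no named type (-0.48). In untreated cells it was lost with HTODemux hashtag calls (-0.36) and within 4000 to 12000 UMIs (-0.40). The untreated enzyme median was close to 0 with HTODemux (-0.0035) and with per-cell means (-0.03), with 6 of 12 enzymes below 0 in both. The direction of the sum held over both depth ranges as a whole. It was -0.45 and -0.32 in the shallower and deeper cells after MC903, and -0.23 and -0.13 in untreated ones. Inside the shallower range, MC903 BFP+ DCs of 2000 to 4000 UMIs had 1044 CPM (903 to 1202). The BFP- ones had less, 957 CPM (875 to 1046), with overlapping intervals. The direction also held among DCs of no named type, at -0.31 (-0.34 to -0.29) after MC903 and -0.19 (-0.26 to -0.13) in untreated cells. In Tesc Tubb2b DCs of the MC903 capture BFP+ cells lay higher instead, with 1300.4 CPM in BFP+ and 1168 CPM in BFP- cells.

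DCs were sorted into types by marker genes, none of them a member, and levels in types are from all cells of the type with any or no hashtag. Mature cDC1-like cells were called by Apol10b, Laptm4b, Asprv1, Smagp and Dnase1l3. Other cDC1 markers (Xcr1, Clec9a, Tlr3, Cadm1 and Naaa) summed to 30.7 CPM in them after MC903, against 18.6 CPM in all DCs. In untreated mice these sums were 48.0 and 50.8 CPM. Whether the gated cells belong to the cDC1 lineage, which presents antigen to CD8 T cells, was not tested. After MC903 the mature cDC1-like cells had the highest enzyme sum of any gated type. It was 1626 CPM (1577 to 1677) in 227 such cells, against 1194 CPM in the other DCs of that capture. In untreated mice the 245 mature cDC1-like cells had 1091 CPM (1033 to 1151), against 1028 CPM in the other DCs. In the MC903 capture 5 of 20 members were apart, all above, beside 20.5% of all genes. They were Sqle with 71.0 CPM against 31.9 CPM in the other DCs, a log2 ratio of 1.16 (0.92 to 1.38), and Fdft1, Nsdhl, Fdps and Mvd with log2 ratios from 0.75 to 0.81. That share is close to the background. The sum lay above the other DCs at both depths after MC903, with a log2 ratio of 0.77 (0.63 to 0.91) from 2000 to 8000 UMIs and 0.39 (0.34 to 0.43) in deeper cells. No member was apart the same way in both captures, beside 5.93% of all genes.

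Set against the same type in untreated mice, mature cDC1-like cells had a higher enzyme sum after MC903, a log2 ratio of 0.58 (0.49 to 0.67). Langerhans cell-like cells had a ratio of similar size, 0.61 (0.46 to 0.77). In the mature cDC1-like cells 10 of 21 members were apart above and Scap below, 11 of 21 beside 18.4% of all genes. The median of 14 enzymes in these cells was 0.67 against -0.02 over all genes. Sqle stood at 71.0 CPM after MC903 and 24.9 CPM in untreated cells, a log2 ratio of 1.52 (0.95 to 2.13). Fdps stood at 241 CPM after MC903 and 110 CPM in untreated cells, a log2 ratio of 1.13 (0.85 to 1.41). Pmvk, Mvk, Mvd, Fdft1, Cyp51, Nsdhl, Scd2 and Stard4 were apart above with log2 ratios from 0.65 to 1.11, those of Scd2 and Stard4 with intervals that held 0. Unlike the populations as a whole, shallow cells of this type kept the direction: with 2000 to 8000 UMIs the sum was 1458 CPM in 51 MC903 cells and 1027 CPM in 200 untreated cells, a log2 ratio of 0.51 (0.33 to 0.68).

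Other types differed in direction. Langerhans cell-like cells (60 after MC903, 163 untreated), called by Epcam, Cldn1, Cd207 and Mfge8 while Cldn7 was near 0, had 1381 CPM after MC903 and 902 CPM in untreated mice, a log2 ratio of 0.61 (0.46 to 0.77). DCs of no named type had 1218 CPM after MC903 and 1040.4 CPM in untreated mice, a log2 ratio of 0.23 (0.20 to 0.25) that stood at -0.25 (-0.29 to -0.20) among cells of 2000 to 8000 UMIs. Efnb2 Slamf1 DCs had 1014 CPM after MC903 and 1141 CPM in untreated mice, at -0.17 (-0.33 to -0.00). Cxcl1 Clu Ehf DCs had 1003 and 1081 CPM after MC903 and in untreated mice, at -0.11 (-0.24 to 0.03), but the 50 barcodes of this gate after MC903 were led by salivary genes such as Bpifa2 and Smr3a, at 3069.9 and 1819 CPM. Sned1 Myb Sox4 DCs had 875 and 909 CPM after MC903 and in untreated mice, at -0.06 (-0.18 to 0.08), and at -0.40 (-0.59 to -0.20) among cells of 2000 to 8000 UMIs. The sum was thus above untreated in mature cDC1-like, Langerhans cell-like and unnamed DCs, below it in Efnb2 Slamf1 DCs, and the intervals of the last pair of types held 0.

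**Figure D4:**
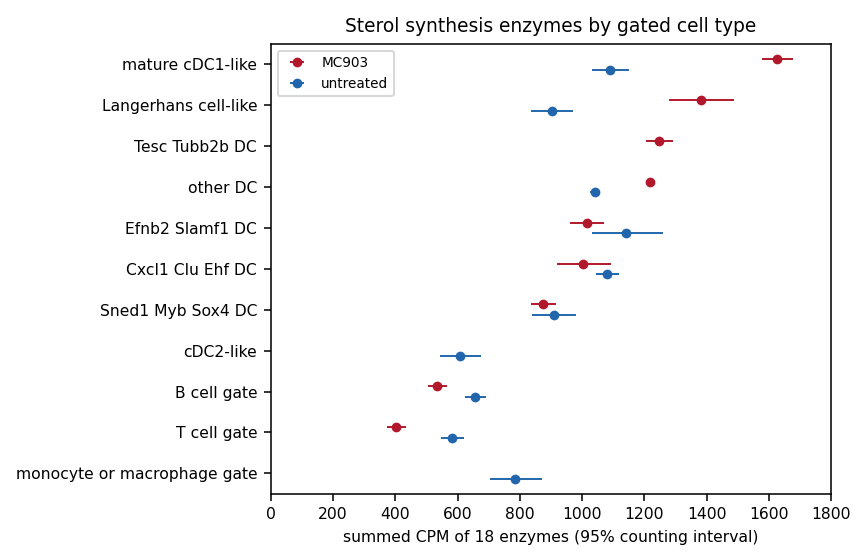
Summed CPM of the 18 sterol synthesis enzymes by gated cell type, MC903 capture in red and untreated capture in blue, with 95% Poisson intervals; types with under 50 cells in a capture have no point there. Mature cDC1-like cells of the MC903 capture lie highest at 1626 CPM and T cell-gated barcodes of that capture lowest at 402 CPM.

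Lower levels than in the other DCs were seen in cDC2-like cells, in Sned1 Myb Sox4 DCs and, in untreated mice, in Langerhans cell-like cells. The 127 cDC2-like cells of untreated mice, called by Cd209a, Mgl2, Clec10a and Cd209d, had an enzyme sum of 608 CPM, against 1042 CPM in the other DCs, a log2 ratio of -0.78 (-0.94 to -0.62). Of 20 members 12 were apart below, from Pmvk and Abcg1 at -0.59 to Mvd at -1.29, and 3 above, Lpcat3 at 1.87 (from 15 UMIs), Scd2 at 1.22 (0.64 to 1.75) and Scap at 0.74 (-0.11 to 1.48), together 15 of 20 beside 40.9% of all genes. Among cells of 2000 to 8000 UMIs 7 were apart below and 5 above, and with per-cell means 8 below and 5 above. No share of all genes was computed for these settings. Lpcat3, an enzyme that places polyunsaturated fatty acids in phospholipids, stood at 26.7 CPM in cDC2-like cells, against 7.33 CPM in the other DCs. These cells also held less of the maturation genes, with 909 CPM of Ccr7 and 912 CPM of Fscn1, against 2512 and 1995 CPM over all untreated DCs. Among cells of 2000 to 8000 UMIs the sum was 788 CPM in 114 cDC2-like cells and 1018 CPM in the other DCs, a smaller difference of -0.37 (-0.54 to -0.20). The part of maturity in the lipid genes was not tested, and with 21 such cells after MC903 no second capture was available. Sned1 Myb Sox4 DCs of the MC903 capture had 875 CPM, against 1232 CPM in the other DCs, a log2 ratio of -0.49 (-0.56 to -0.43). There 8 of 19 members were apart, all below, beside 10.7% of all genes, from Msmo1 at -0.61 to Fdps at -0.95, and the sum ratio was -0.31 (-0.45 to -0.18) among cells of 2000 to 8000 UMIs. In untreated mice the sum ratio of this type was -0.19 (-0.30 to -0.07), and -0.10 (-0.25 to 0.04) among cells of 2000 to 8000 UMIs. Langerhans cell-like cells had 902 CPM in untreated mice, against 1036 CPM in the other DCs, a log2 ratio of -0.20 (-0.31 to -0.09), while after MC903 it was 0.19 (0.08 to 0.29).

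Few members marked a type in both captures. Sqle was apart above in Langerhans cell-like cells, with 58.2 CPM against 33.6 CPM in the other DCs after MC903 and 42.6 CPM against 24.7 CPM in untreated mice, 1 of 18 members tested beside 7.2% of all genes. It was apart below in Sned1 Myb Sox4 DCs, with 19.6 CPM against 34.5 CPM after MC903 and 8.42 CPM (6 UMIs) against 25.8 CPM in untreated mice, 1 of 18 beside 2.64%. Mvk was apart below in Efnb2 Slamf1 DCs, with 23.9 CPM against 36.1 CPM after MC903 and 11.4 CPM (4 UMIs) against 22.3 CPM in untreated mice, 1 of 19 beside 4.11%. The untreated interval of Mvk held 0 (-2.84 to 0.40), and the call was lost with gates on all UMIs, totals without mitochondrial and ribosomal genes, per-cell means or at most 20000 UMIs. No member was apart in both captures in Cxcl1 Clu Ehf DCs, beside 2.23% of all genes. Xcr1/Clec9a cDC1-like cells numbered 3 and 30 in the MC903 and untreated captures and were not compared. In Tesc Tubb2b DCs of the MC903 capture, Abcg1 stood at 94.4 CPM, against 189 CPM in the other DCs, a log2 ratio between -1.19 and -0.82, and Mvk at 54.5 CPM against 34.8 CPM.

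Across single cells the sterol enzymes varied together. To compare cells at 1 depth, 2000 UMIs were drawn from each. A mean of 1.94 and 2.45 enzyme UMIs was found per MC903 BFP+ and BFP- DC, against 1.95 and 2.04 per untreated BFP+ and BFP- DC. The variance over cells was 4.60 and 6.68 after MC903 in BFP+ and BFP- DCs, and 3.99 and 3.63 in untreated BFP+ and BFP- DCs. If the 18 genes varied independently, their own variances would add up to 2.59, 3.50, 2.32 and 2.51 in that order of populations. Cells with 5 or more enzyme UMIs made up 10.9% and 16.5% of MC903 BFP+ and BFP- DCs, against 9.95% and 9.97% of untreated BFP+ and BFP- DCs. Cells with none made up 27.1% and 21.1% after MC903 in BFP+ and BFP- DCs, and 24.8% and 21.3% in untreated ones, against 47.2% of B cell-gated and 56.1% of T cell-gated barcodes of the MC903 capture, and 33.7% and 37.6% of B and T cell-gated barcodes of the untreated one.

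Regulators and transporters were then read in the UMIs that had not been drawn, in cells grouped by the enzyme UMIs drawn. The groups are ranges of 1 score, not cell types, and 182 and 256 of the MC903 BFP- DCs lay at the edge, with 5 and 4 enzyme UMIs. They also differed in depth: MC903 BFP- DCs had a median of 8401 UMIs with no enzyme UMI and 10997.5 with 5 or more. In MC903 BFP+ DCs these medians were 9257 and 12588. Insig1, in MC903 BFP- DCs, stood at 16.5 CPM in cells with no enzyme UMI and at 22.1, 35.5 and 59.6 CPM in those with 1 or 2, with 3 or 4 and with 5 or more. Stard4 in the same order stood at 10.3, 18.9, 33.4 and 63.4 CPM, and Srebf2 at 63.0, 83.6, 112 and 150.0 CPM. Abcg1 was flat, with 200.1, 201, 194 and 184 CPM, so Insig1, Stard4 and Srebf2 lay higher in cells with more enzyme UMIs and the exporter did not. The regulators Srebf1 and Scap stayed under 20 CPM at both ends, with 14.9 and 11.1 CPM in cells with 5 or more enzyme UMIs and 9.84 and 13.8 CPM in cells with none.

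Stard4, Scd2, Insig1, Srebf2 and Acly lay higher in each population. Between cells with 5 or more and with no enzyme UMIs, the log2 ratio of Stard4 was 2.30 and 2.63 in MC903 BFP+ and BFP- DCs, and 2.38 and 2.49 in untreated BFP+ and BFP- DCs. That of Scd2 ran from 1.42 to 2.33 over the 4 populations, of Insig1 was between 1.02 and 2.14, of Srebf2 from 0.80 to 1.27 and of Acly from 0.73 to 0.97. Abcg1 lay between -0.12 and 0.23. Of the 11 members that are not sterol enzymes, 5 of the 6 at 20 CPM were apart above in MC903 BFP+ DCs, beside 16.2% of all genes, in MC903 BFP- DCs, beside 8.27%, and in untreated BFP+ DCs, beside 37.8%. In untreated BFP- DCs 5 of 7 were apart above and Scap below, beside 19.4%. A gene counted as at 20 CPM when either end reached that level, for members and all genes alike. Insig1 and Stard4, under 20 CPM in MC903 BFP- DCs with no enzyme UMI, thus entered only through the group where they were high. These counts are therefore no separate support for the direction. The untreated BFP+ cells with 5 or more enzyme UMIs numbered 41, and the intervals of Insig1 and Acly held 0 there.

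Other pathway genes went both ways. At 20 CPM, 5 of 14 were apart above and 3 below in MC903 BFP+ DCs, beside 16.2% of all genes. In MC903 BFP- DCs 3 of 12 were above and 0 below, beside 8.27%. Untreated BFP+ DCs had 6 of 16 above and 3 below, beside 37.8%, and BFP- DCs 3 of 16 above and 2 below, beside 19.4%. Aacs, which makes acetoacetyl-CoA in the cytosol, lay higher by log2 ratios of 2.47 to 3.17. Its level in the whole populations was only 9.22 to 15.4 CPM. Pcyt2, an enzyme of phosphatidylethanolamine synthesis, lay higher by 1.20 to 1.98, though its interval held 0 in untreated BFP+ DCs. General genes moved as well: Actb by 0.64 to 0.76 and Fscn1 by 0.57 to 0.98, while Ccr7 lay between -0.32 and 0.21. Within cells of 8000 to 16000 UMIs the same 5 of 6 members were apart above after MC903. Beside them stood 425 genes above and 476 below of 4838 in BFP+ DCs, and 251 and 224 of 4809 in BFP- DCs. MC903 DCs of no named type gave the same 5 of 6. Beside these stood 405 and 472 of 4918 (BFP+) and 197 and 223 of 4895 (BFP-). In untreated cells of 8000 to 16000 UMIs, 5 of 6 were above in BFP+ DCs, beside 936 and 1496 of 5370. In BFP- DCs 6 of 8 were above and 1 below, beside 523 and 987 of 5296.

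**Figure D5:**
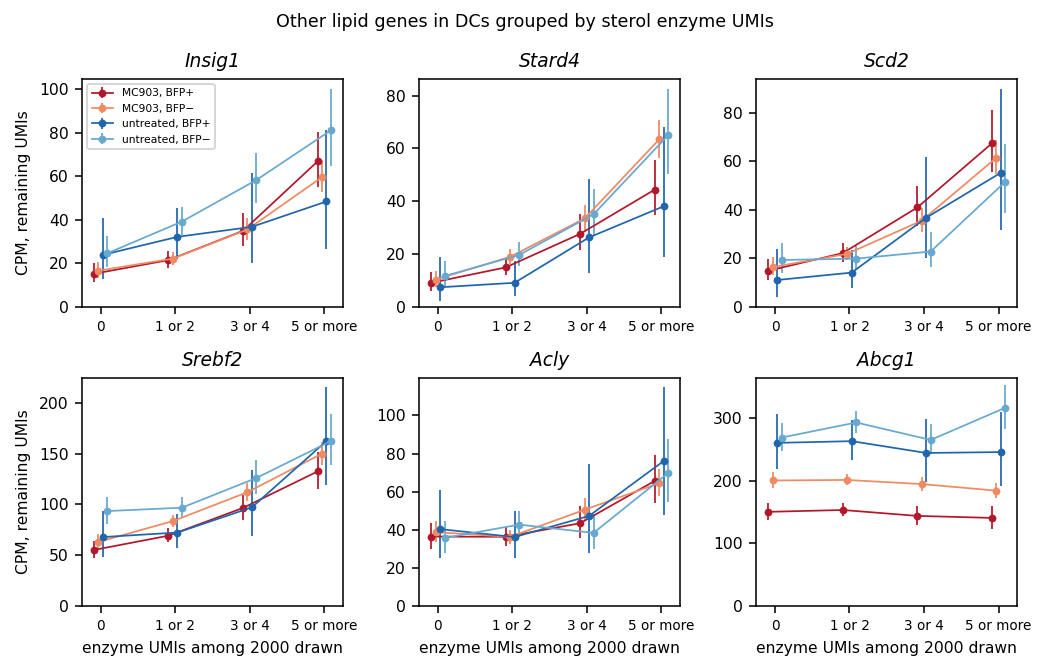
CPM of 6 lipid genes that are not sterol enzymes (vertical axes), read in the UMIs left after 2000 were drawn from each DC, in cells grouped by the sterol enzyme UMIs among those 2000, with 95% Poisson intervals. Insig1, Stard4, Scd2 and Srebf2 climb from left to right in all 4 populations and Abcg1 stays level.

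Genes of the pathway outside the 29 were counted from 2 lists. Of 18 further SREBP pathway genes 5 reached 20 CPM in each MC903 comparison. In BFP+ DCs Slc25a1, the mitochondrial citrate carrier, was apart above with 48.9 CPM after MC903 and 31.0 CPM in untreated cells (log2 ratio 0.66), and Elovl1, a fatty acid elongase, with 38.0 CPM after MC903 and 21.4 CPM in untreated cells (0.83), or 2 of 5 beside 7.85% of all genes. In BFP- DCs Slc25a1 was apart above with 44.3 CPM after MC903 and 24.0 CPM in untreated cells (0.88), and Elovl1 had 0.34, or 1 of 5 beside 9.9% of all genes. Of 14 genes of LXR signalling, uptake and storage, Cyp27a1, which makes an oxidised sterol, was apart below in BFP+ DCs, with 12.9 CPM after MC903 and 21.4 CPM in untreated cells (-0.73), or 1 of 6 at 20 CPM beside 7.85%. None of 7 was apart in BFP- DCs, beside 9.9%, where Npc2, which hands cholesterol out of lysosomes, stood at 1101 CPM after MC903 and 1458 CPM in untreated cells (-0.41). Between BFP+ and BFP- DCs none of either list was apart in either capture, beside 2.74% of all genes after MC903 and 6.85% in untreated cells.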

How the data were processed

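Gene and hashtag UMI counts of 2 droplet captures (10x 3' chemistry) were used as deposited, in the authors' feature-barcode matrices; per the submitters' processing notes they were made with Cell Ranger 3.1.0, and the build named is GRCm38 (mm10). The sources used here do not say whether counting used strand. Barcodes entered with 500 or more genes and up to 10% mitochondrial UMIs. A hashtag with at least 80% of a barcode's tag counts gave the population, and no doublet caller was run. DC types were gated by marker genes, without clustering. UMIs were summed per population or type and divided by the total (CPM); intervals at 95% were exact for Poisson counts, except those of differences between ratios, which were normal on the log scale. With 1 pool per population no test was made: a gene was called apart at 20 CPM and 1.5-fold. Named members were those apart in a population comparison and the most abundant of each role group. The members and lists were chosen with earlier results of these data known. Results were recomputed with other filters, HTODemux (Seurat 5.3.0) and TMM scaling (edgeR 4.0.16, R 4.3.3); the ranges of 2000 to 8000, at least 8000 and at most 20000 UMIs, the fits among DCs of no named type, the subsets of the grouped cells and the Cxcl1, Efnb2, Sned1, Tesc and cDC2-like results were added after seeing the data. Intervals and calls were tested on counts simulated as Poisson. That check leaves out the spread between cells, so it could not show whether the intervals are wide enough for it. At 2000 UMIs per cell, the variance of enzyme UMIs was 2.37 and 2.73 times their mean in MC903 BFP+ and BFP- DCs. Scripts used Python 3.11.15, numpy 2.4.6, scipy 1.17.1, pandas 2.3.3 and matplotlib 3.10.9.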

Additional observations from a re-analysis of the deposited data

Results flagged for a closer look

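These genes went in opposite directions in groups under the same contrast, with counting intervals on opposite sides of 0. The differences between the groups were not tested, since each value comes from 1 pool. Against the other DCs, Langerhans cell-like cells had log2 ratios for Hmgcs1 of 0.33 in the MC903 capture and -0.35 in the untreated one, and for Idi1 of 0.59 in the MC903 capture and -0.35 in the untreated one. Efnb2 Slamf1 DCs had log2 ratios for Cyp51, against the other DCs, of -0.46 in the MC903 capture and 0.67 in the untreated one.

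Between MC903 and untreated captures, Hmgcs1 had log2 ratios of -0.49 in Cxcl1 Clu Ehf DCs and -0.61 in Efnb2 Slamf1 DCs, but 0.82 in Langerhans cell-like, 0.55 in mature cDC1-like and 0.12 in unnamed DCs. Fdps had -0.54 in Cxcl1 Clu Ehf DCs, but 0.85 in Langerhans cell-like, 1.13 in mature cDC1-like and 0.46 in unnamed DCs. Cyp51 had -1.03 in Efnb2 Slamf1 DCs, but 0.65 in mature cDC1-like and 0.10 in unnamed DCs. Srebf2 had -0.60 in Sned1 Myb Sox4 DCs and -0.17 in unnamed DCs, but 0.32 in mature cDC1-like cells.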

How the results depend on the processing

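No paired analysis was possible because each population was 1 pool, and for the same reason no replicate could be left out. The number of members apart, MC903 against untreated in BFP+ DCs (2), became 4 of 19 with TMM scaling, beside 8.01% of all genes. It was 4 of 18 within 4000 to 12000 UMIs, beside 12.0%, and 4 of 18 within DCs of no named type, beside 6.87%. With no 20 CPM minimum it was 5 of 29, beside 37.3%. Within 2000 to 8000 UMIs it was 8 of 17, all below, beside 16.6%. In BFP- DCs (4) it became 8 of 29 with no minimum, beside 37.4% of all genes. Within 2000 to 8000 UMIs it was 1 of 19, beside 10.1%, and Fdps reversed there to a log2 ratio of -0.13. BFP+ against BFP- after MC903 (1) gave 0 at 5% mitochondrial UMIs, with no DC gate, with TMM scaling and from 8000 UMIs up. Beside these stood 2.25% to 2.85% of all genes. It gave 6 of 19 within 4000 to 12000 UMIs, beside 4.03%, and 7 of 18 within 2000 to 8000 UMIs, beside 6.64%. The untreated pair (1) gave 0 with HTODemux, beside 5.54% of all genes, and 3 of 18 at a 90% hashtag share, beside 8.12%. It gave 2 of 18 at 5% mitochondrial UMIs, from 1000 genes, with no DC gate, with gates on all UMIs, within other DCs and in all 3 depth ranges. Beside these stood 5.88% to 9.82% of all genes. With no minimum it gave 2 of 29, beside 36.9%. Of types, Langerhans cell-like (1 in both captures) gave 3 with TMM and 2 with per-cell means, no minimum or at most 20000 UMIs. Mature cDC1-like (0) gave 1 with no minimum and 1 within 2000 to 8000 UMIs, and Cxcl1 Clu Ehf (0) gave 2 with no minimum. Efnb2 Slamf1 (1) gave 2 with no minimum and 0 with gates on all UMIs, totals without mitochondrial and ribosomal genes, per-cell means or at most 20000 UMIs. Sned1 Myb Sox4 (1) gave 2 at 5% mitochondrial UMIs, from 1000 genes or with TMM, 3 with no minimum and 0 within 2000 to 8000 UMIs. Tesc Tubb2b in the MC903 capture (2) gave 4 with gates on all UMIs, 7 within 4000 to 12000 UMIs, 5 with per-cell means and 6 with no minimum. For types, no share of all genes was computed under the other settings, and none is given for Tesc Tubb2b. These type counts are therefore not read as results about the members. TMM moved the median of all genes by 0.10 in BFP+ and 0.13 in BFP- DCs (log2, MC903 over untreated). The ranges of 2000 to 8000, at least 8000 and at most 20000 UMIs, the restriction to other DCs and the results for Cxcl1, Efnb2, Sned1, Tesc and cDC2-like types were chosen after seeing the data, and the cause of these moves was not tested. Results in both captures could not be given for cDC2-like and Xcr1/Clec9a cDC1-like cells, which had under 50 cells in a capture.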
